A study of Arabidopsis thaliana with 45 samples.

Results

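The genes described here were silent in shoots with intact FIE and transcribed in both lines with altered FIE. Of 32678 genes counted in Arabidopsis thaliana, 67 met the rule: a mean level below 1 CPM (counts scaled to the library total) in both Ctrl and GFP-FIE, and of at least 3 CPM in both amiR-fie-es and SSTS/AAAA. Means were taken over the 3 libraries of a group. Of these genes, 64 are protein-coding and 3 are pseudogenes. They are spread over all 5 chromosomes, with 16, 11, 13, 13 and 14 on chromosomes 1 to 5, and AT3G21030 and AT3G21040, both pseudogenes, were the only immediate neighbours among them. Because RNA values chose the genes, their levels in amiR-fie-es against Ctrl and in SSTS/AAAA against GFP-FIE are given as a description with no test. The histone mark did not enter the rule. The difference between amiR-fie-es and SSTS/AAAA was not part of it either, but the floor of 3 CPM in both lines limits that difference.

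Polycomb repressive complex 2 (PRC2) silences developmental genes by placing trimethylation on lysine 27 of histone H3 (H3K27me3). FIE is its WD40-repeat subunit, and in Arabidopsis the complex keeps flowering and floral organ genes off in leaves. Plants that lack FIE activity are known for flower-like and embryo-like growth out of place. H3K9me2, measured alongside, is a mark of silenced transposons.

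All RNA came from the aerial part of 2-week-old seedlings grown on solid medium, in 4 groups of 3 libraries. Ctrl was wild-type Col-0. amiR-fie-es carried an artificial microRNA against FIE, made with the PLB21 vector and induced with oestradiol (10 mM as labelled) from the start of growth. GFP-FIE was a fie mutant rescued by a GFP fusion of FIE (GFP-FIE/fie), and SSTS/AAAA was the same mutant with a phosphorylation-site mutant form of that protein (SSTS/AAAA/fie). The labels do not say whether the other groups received oestradiol, which promoter drove the transgenes, or how many independent lines were used. H3K27me3 was profiled in the same 4 groups. The second set used 7-day-old seedlings from liquid medium: Col-0, tor-es given oestradiol on day 3 to deplete the TOR kinase, and Col-0 given DMSO or 10 µM of the TOR inhibitors AZD8055 or Torin2 on day 4 for 3 days. Here tor-es and its Col-0 control also had H3K9me2 libraries. Nothing in the labels says that replicate libraries came from separate cultures, so the p-values rest on a spread between libraries that may be technical.

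Library totals ran from 28866845 to 34543091 counts. FIE itself was at 14.9 to 17.4 CPM in Ctrl, 21.9 to 25.5 in GFP-FIE, 9.44 to 9.79 in amiR-fie-es and 12.3 to 13.0 in SSTS/AAAA, so its transcript was lower in each line than in that line's control but not absent. The shoot markers LHCB2.1, RBCS1A and CA1 summed to 20516 to 21228 CPM in both FIE lines and to 26379 to 27359 CPM in the controls. Marker lists of other tissues were summed as well. Over 9 anther and pollen genes the summed level was 0.987 to 1.39 CPM in Ctrl, 0.796 to 1.24 in GFP-FIE, 1.48 to 1.58 in amiR-fie-es and 3.50 to 3.75 in SSTS/AAAA, with 3 or 4 of the genes at 0 in each group. Over 10 root genes it was 77.1 to 79.2, 63.3 to 66.3, 80.2 to 82.7 and 65.1 to 69.4 CPM in the same order. Over 10 embryo regulators it was 6.72 to 7.16, 4.69 to 5.97, 6.43 to 6.65 and 16.9 to 18.6 CPM, with 0 to 2 of them at 0. Over 10 endosperm and imprinted genes it was 0.680 to 1.11, 0.862 to 0.931, 2.50 to 2.84 and 1.69 to 2.49 CPM, with 1 to 3 at 0. Over 12 seed storage genes, PAP85 of the module included, it was 3.67 to 3.97, 2.41 to 2.98, 12.5 to 14.5 and 9.09 to 9.70 CPM, with 1 to 3 at 0. The summed floral organ and flowering-time list of 48 genes, which holds 6 members of the module, was 270.0 to 278 CPM in Ctrl, 243 to 254 in GFP-FIE, 529 to 533 in amiR-fie-es and 737 to 758 in SSTS/AAAA. Without PAP85 the seed storage sum was 2.84 to 3.23 CPM in Ctrl, 2.00 to 2.59 in GFP-FIE, 3.19 to 3.62 in amiR-fie-es and 4.48 to 5.24 in SSTS/AAAA, so amiR-fie-es and Ctrl overlapped. Without the 6 members the floral sum was 269 to 277, 240 to 252, 449 to 453 and 632 to 649 CPM. WOX9, singled out after its values were seen, held 11.8 CPM of the embryo sum in SSTS/AAAA and 0.448 CPM in GFP-FIE. The anther and pollen, endosperm and floral sums were thus higher than the control in both lines, and the embryo and seed storage sums without PAP85 in SSTS/AAAA alone. The root sum was higher in amiR-fie-es alone. On this scale of library totals the median log2 fold change of all tested genes was also above 0, at 0.20 in amiR-fie-es and 0.23 in SSTS/AAAA. The part of these tissues in the results was not tested. In bulk shoots, more cells with a transcript and more of it per cell cannot be told apart.

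Among the 14935 genes silent in both controls, the 67 made up 0.449%. A further 102 such genes reached 3 CPM in SSTS/AAAA but not in amiR-fie-es, 7 did so in amiR-fie-es alone, and 14172 stayed below 1 CPM in all 4 groups. The 67 genes together held 25.6 to 29.8 CPM in Ctrl and 28.5 to 37.2 CPM in GFP-FIE. They held 488 to 502 CPM in amiR-fie-es and 804 to 818 CPM in SSTS/AAAA. For every gene, all 6 libraries of the FIE lines stood above all 6 control libraries, a separation that the rule itself nearly fixes. The median gene was at 0.353 CPM in Ctrl, 0.423 in GFP-FIE, 5.14 in amiR-fie-es and 8.23 in SSTS/AAAA, so most of the genes stayed at a low level. The limits cut through a continuum. In amiR-fie-es, AT2G36690 at 2.97 CPM and CYP714A1 at 2.90 CPM fell just outside, while YSL7 (3.05) and AT3G21030 (3.06) fell just inside. In SSTS/AAAA the nearest genes were CKX3 (3.05) and AT4G05470 (3.62) inside, and HB20 and LLG2 (both 2.89) outside. In Ctrl, AT1G73120 (0.991) and AT4G19430 (0.970) were inside, and AT4G21930 and AT2G20870 (both 1.00) outside. In GFP-FIE, AT1G75580 (0.993) and AT1G03710 (0.983) were inside, and PCS1 (1.06) and RIBA2 (1.08) outside. With the limits set at 0.5 and 5 CPM, 11 of the 67 genes remained, and 37 remained when every single library had to meet the limits. Scaling to library totals put the median log2 fold change of all tested genes at 0.20 in amiR-fie-es against Ctrl and 0.23 in SSTS/AAAA against GFP-FIE, where TMM scaling put it at 0.01 and 0.02. With TMM-scaled CPM, 53 of the 67 genes met the rule.

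**Figure D1:**
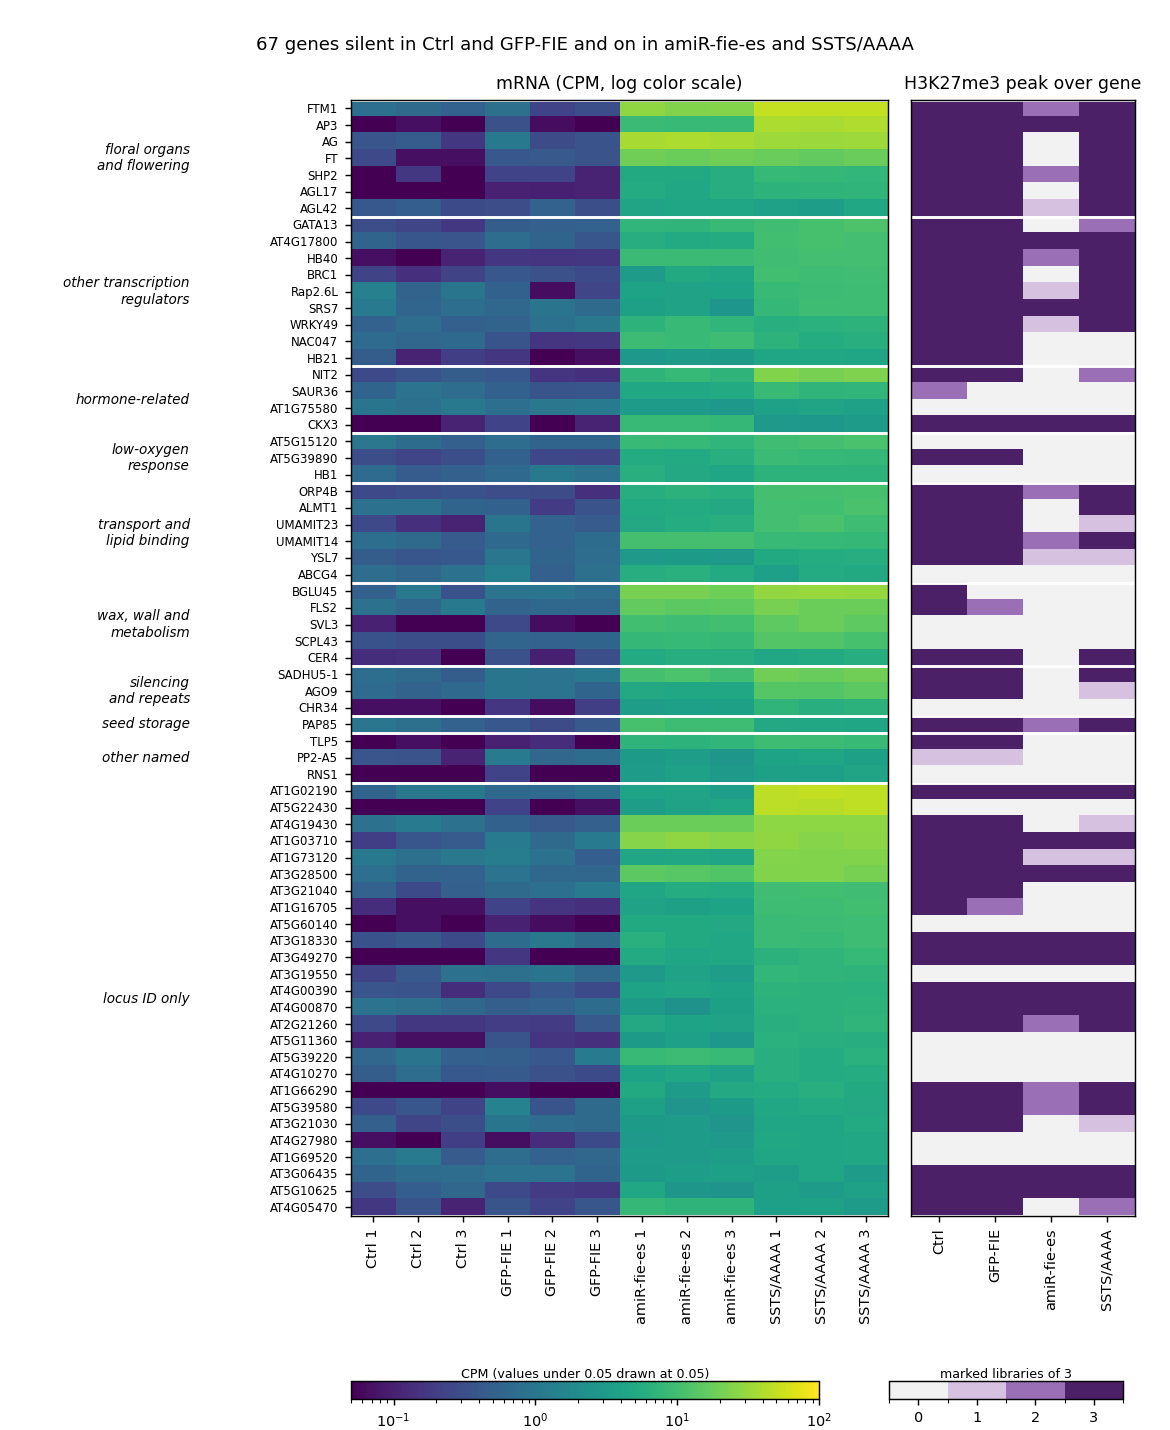
Heat map of the 67 genes grouped by known function, with CPM in each of the 12 RNA libraries (left, log color scale) and the number of the 3 H3K27me3 libraries of each group in which a peak covered the gene (right). All 6 libraries of amiR-fie-es and SSTS/AAAA stand above the 6 control libraries in every row, while the mark on the right ranges from absent in all 4 groups (16 genes) to present in all 12 libraries (13 genes).

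Floral and flowering genes formed the best-known group, with 7 members. AG, the MADS-box factor that specifies stamens and carpels, was at 0.373, 0.450 and 0.170 CPM in the 3 Ctrl libraries and at 1.09, 0.293 and 0.345 CPM in GFP-FIE. It was at 37.2, 39.0 and 37.3 CPM in amiR-fie-es and at 32.8, 32.2 and 32.9 CPM in SSTS/AAAA. Both lines were far above the controls, and amiR-fie-es was the higher of the lines in every library. AP3, which specifies petals and stamens, was at 0.0339 to 0.0693 CPM in Ctrl and 0.0345 to 0.332 CPM in GFP-FIE. It was at 8.82, 8.47 and 8.41 CPM in amiR-fie-es and at 39.4, 38.4 and 39.9 CPM in SSTS/AAAA. The order of the lines was thus the opposite of that for AG. FT, the mobile signal that induces flowering, was at 0.0680 to 0.271 CPM in Ctrl and 0.345 to 0.423 CPM in GFP-FIE. It was at 19.4, 18.1 and 19.3 CPM in amiR-fie-es and at 17.8, 15.9 and 17.8 CPM in SSTS/AAAA, nearly the same in both lines. FTM1, an acyl carrier protein desaturase required for the floral transition at the meristem, was at 28.2, 24.0 and 24.6 CPM in amiR-fie-es and at 50.8, 49.6 and 50.1 CPM in SSTS/AAAA, against 0.228 to 0.829 CPM in the controls.

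The other floral members were MADS-box genes at lower levels. SHP2, a carpel and fruit factor, was at 5.04 to 5.71 CPM in amiR-fie-es and at 7.67 to 8.05 CPM in SSTS/AAAA, and at 0 to 0.232 CPM in the controls. An annotated non-coding RNA gene overlaps SHP2, and others overlap BGLU45. Protein-coding genes overlap the members AT1G16705, AT1G69520, AT3G06435, AT3G19550, AT4G10270, ORP4B and AT5G11360. How the counting treated strand is not known here. AGL17 was at 4.66 to 5.66 CPM in amiR-fie-es and at 6.90 to 7.32 CPM in SSTS/AAAA. It had a single count in the 3 Ctrl libraries together, which put amiR-fie-es at 458 times Ctrl with a 95% counting interval of 81.9 to 18138. AGL42, a relative of SOC1, was at 4.20 to 4.43 CPM in amiR-fie-es and 3.47 to 4.60 CPM in SSTS/AAAA, and here the lines overlapped.

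Other transcription regulators gave 9 members, among them genes of lateral bud growth. BRC1, a TCP factor that holds back the outgrowth of axillary buds, was at 0.139 to 0.238 CPM in Ctrl and 0.276 to 0.398 CPM in GFP-FIE. It was at 3.26, 4.99 and 4.54 CPM in amiR-fie-es and at 9.93, 9.41 and 9.61 CPM in SSTS/AAAA. HB21 and HB40, homeodomain factors known to act downstream of BRC1, were both members. HB21 was at 2.88 to 3.22 CPM in amiR-fie-es and 4.55 to 4.71 CPM in SSTS/AAAA, against 0 to 0.475 CPM in the controls. HB40 was at 8.79 to 8.83 CPM in amiR-fie-es and 9.69 to 10.3 CPM in SSTS/AAAA, against 0 to 0.172 CPM in the controls. Their relatives outside the module stayed lower: BRC2 had a mean of 0.680 CPM in amiR-fie-es and 0.966 in SSTS/AAAA, and HB53 had 0.284 and 1.29. These relatives were chosen after the values were seen.

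The remaining regulators included NAC047, a NAC-domain factor, at 9.11, 8.34 and 9.49 CPM in amiR-fie-es and 6.87, 5.50 and 5.79 CPM in SSTS/AAAA. WRKY49, a WRKY factor, was at 6.78 to 8.60 CPM in amiR-fie-es and 5.90 to 6.80 CPM in SSTS/AAAA. SRS7, of the SHI-related family that acts in floral organ development, was at 2.73 to 3.97 CPM in amiR-fie-es and 7.96 to 9.48 CPM in SSTS/AAAA. GATA13, a GATA zinc-finger factor, the ethylene response factor relative Rap2.6L and AT4G17800, annotated as the AT-hook protein AHL23, were all higher in SSTS/AAAA (10.8, 9.03 and 10.4 CPM on average) than in amiR-fie-es (7.62, 4.09 and 5.41 CPM).

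**Figure D2:**
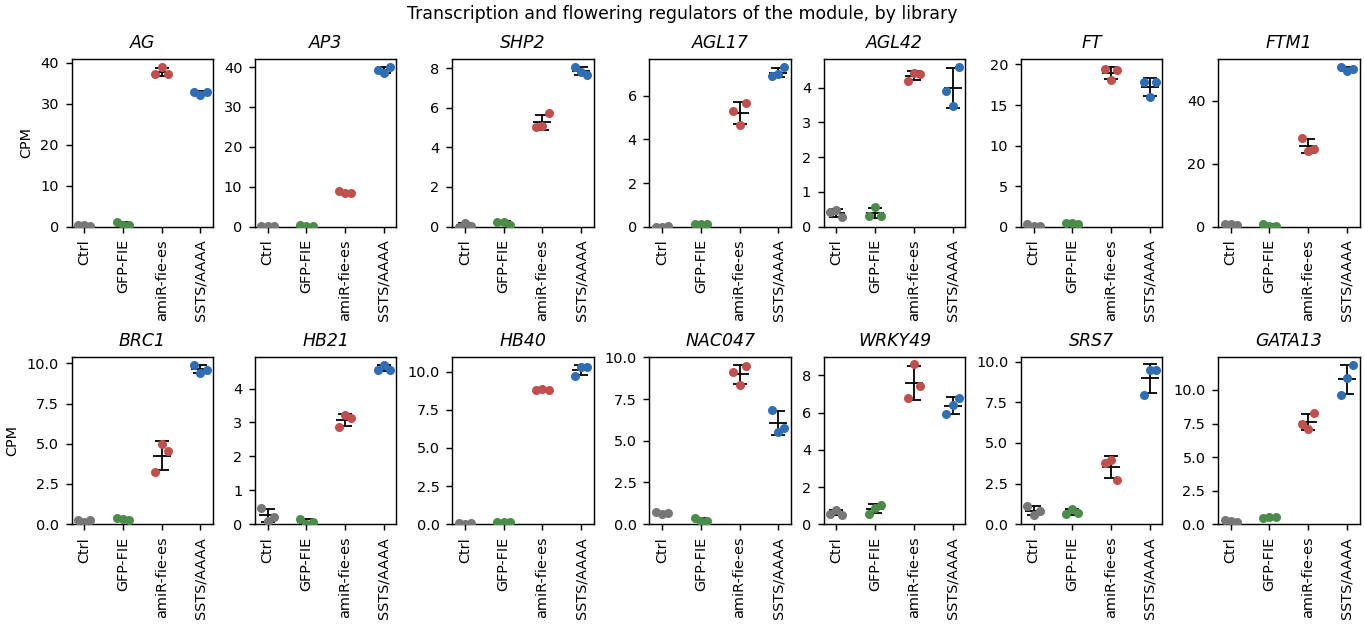
CPM of the 7 floral members and of 7 other regulators in each library, with points for libraries and the black bar and whiskers for the mean and SD of 3 libraries; each vertical axis starts at 0. The controls lie near 0 throughout, and AP3, BRC1 and SRS7 are higher in SSTS/AAAA while AG and NAC047 are higher in amiR-fie-es.

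Hormone-related members numbered 4. CKX3, a cytokinin oxidase that degrades cytokinin, was at 8.37, 8.60 and 7.97 CPM in amiR-fie-es and at 3.05, 2.86 and 3.24 CPM in SSTS/AAAA, against 0 to 0.232 CPM in the controls. NIT2, a nitrilase, was at 7.00 to 8.11 CPM in amiR-fie-es and 21.2 to 23.8 CPM in SSTS/AAAA. The small auxin up RNA gene SAUR36 was at 4.88 CPM on average in amiR-fie-es and 7.78 CPM in SSTS/AAAA, and AT1G75580, annotated as SAUR51, was at 3.11 and 3.97 CPM. The last showed the smallest folds of the module over the controls, 3.25 for amiR-fie-es over Ctrl and 3.99 for SSTS/AAAA over GFP-FIE.

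Genes of the low-oxygen response gave 3 members. AT5G15120 and AT5G39890, annotated as the plant cysteine oxidases PCO1 and PCO2, are oxygen sensors that mark ERF-VII transcription factors for degradation. PCO1 was at 7.53 to 8.40 CPM in amiR-fie-es and 9.78 to 11.3 CPM in SSTS/AAAA, against 0.510 to 1.02 CPM in the controls. PCO2 was at 5.29 to 6.12 CPM in amiR-fie-es and 7.82 to 8.84 CPM in SSTS/AAAA, against 0.241 to 0.531 CPM in the controls. HB1, a low-oxygen-induced non-symbiotic haemoglobin, was at 4.31 to 5.88 CPM in amiR-fie-es and 6.80 to 6.90 CPM in SSTS/AAAA, against 0.450 to 1.07 CPM in the controls. Other genes of this response, listed after the values were seen and given without a test, were 7, and the means of 5 were above the control in both lines. LBD41 averaged 6.37 CPM in Ctrl, 4.21 in GFP-FIE, 22.5 in amiR-fie-es and 29.2 in SSTS/AAAA. PDC1, a pyruvate decarboxylase of fermentation, averaged 0.0688, 0.0881, 0.480 and 5.57 CPM in the same order. HRA1 averaged 3.11, 2.86, 10.1 and 12.8 CPM, and HRE1, an ERF-VII factor, averaged 1.17, 1.89, 2.59 and 4.01 CPM. HRE2, another ERF-VII factor, averaged 0.0340, 0.0553, 0.287 and 0.854 CPM. The remaining genes went other ways. ADH1, the alcohol dehydrogenase, averaged 3.13, 1.30, 2.64 and 4.39 CPM. SUS4, a sucrose synthase, averaged 1.19, 0.931, 0.543 and 0.20 CPM and was lowest in SSTS/AAAA.

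Transport and metabolism supplied further members. Of the 6 transport and lipid-binding genes, the amino acid exporter UMAMIT14 was at 10.7 CPM in all 3 amiR-fie-es libraries and at 7.99 to 8.69 CPM in SSTS/AAAA. Its relative UMAMIT23 was at 4.85 to 5.95 CPM and 9.47 to 11.2 CPM, and the malate channel ALMT1, known for aluminium tolerance in roots, was at 4.86 to 5.32 and 9.89 to 11.4 CPM. Among the wax, wall and metabolism genes, BGLU45, a beta-glucosidase that acts on monolignol glucosides, was at 21.1, 20.8 and 19.0 CPM in amiR-fie-es and at 29.3, 30.9 and 30.3 CPM in SSTS/AAAA, against 0.340 to 1.04 CPM in the controls. FLS2, here flavonol synthase 2 (AT5G63580) and not the flagellin receptor, was at 14.9 to 16.3 and 18.1 to 21.2 CPM. SVL3, a glycerophosphodiester phosphodiesterase-like protein, was at 9.49 to 10.1 and 15.3 to 18.3 CPM. It had the largest fold of amiR-fie-es over Ctrl, 216, among the 60 genes with more than 3 Ctrl counts. CER4, the fatty acyl reductase that makes primary alcohols of wax, was at 5.20 to 5.75 and 4.64 to 5.73 CPM.

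Silencing genes and repeats were few. AGO9, an argonaute protein known from ovules, averaged 4.76 CPM in amiR-fie-es and 13.7 CPM in SSTS/AAAA. CHR34, a chromatin remodelling protein, averaged 3.64 and 6.59 CPM. The non-coding retroposon copy SADHU5-1 averaged 10.7 and 18.6 CPM, against 0.650 in Ctrl and 0.981 in GFP-FIE. PAP85, a vicilin-like seed storage protein, was at 9.35 to 10.9 CPM in amiR-fie-es and 4.46 to 4.90 CPM in SSTS/AAAA, and it was the only member of the seed storage list. TLP5, a tubby-like protein, averaged 7.09 and 9.07 CPM in amiR-fie-es and SSTS/AAAA. The ribonuclease gene RNS1 averaged 3.39 and 3.86 CPM, and the phloem protein gene PP2-A5 averaged 3.10 and 4.04 CPM.

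The other 26 members are given by locus identifier only and were not sorted by function here. Some may belong to the groups above, whose counts are therefore minimum counts. Per gene length, on the RPKM scale, the highest of all members in SSTS/AAAA was AT5G22430 at 50.3, followed by AT1G73120 at 41.7. AT5G22430 was at 3.52, 3.94 and 4.48 CPM in amiR-fie-es and at 46.8, 44.8 and 49.0 CPM in SSTS/AAAA. AT1G02190 was at 4.17, 4.24 and 3.46 CPM in amiR-fie-es and at 46.8, 49.4 and 48.9 CPM in SSTS/AAAA. Neither gene's lines overlapped. AT1G03710 was level between the lines, at 26.6 ± 1.72 CPM (SD, n = 3) in amiR-fie-es and 26.6 ± 1.59 CPM in SSTS/AAAA. AT4G19430 averaged 18.2 and 27.4 CPM, and AT3G28500 was at 12.7 to 14.6 and 20.8 to 23.5 CPM. AT1G66290 had no count in Ctrl, so amiR-fie-es was at least 130-fold higher, counting Ctrl at 3 counts over the group.

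Most of the genes were higher in SSTS/AAAA than in amiR-fie-es. By edgeR's quasi-likelihood test over 20046 genes with Benjamini-Hochberg adjustment, 50 of the 67 genes were higher in SSTS/AAAA, 8 were lower and 9 were not called. Of all genes tested, 30.9% were higher in SSTS/AAAA and 25.0% were lower. Among all genes at 3 CPM or more in both lines, 32.2% were higher and 28.5% lower. The median log2 difference was 0.59 for the 67 genes and 0.03 for all genes tested. All 67 genes passed the filter on low counts, as the choice of members made certain. The floor of 3 CPM left out 102 genes that reached it in SSTS/AAAA only and 7 in amiR-fie-es only. The split thus describes only the genes past the floor in both lines.

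The largest differences were at AT1G02190 (log2 difference 3.62 ± 0.07 SE, edgeR adjusted p = 8.1e-36), AT5G22430 (3.56 ± 0.08), AT1G73120 (2.41 ± 0.09), AP3 (2.20 ± 0.07, edgeR adjusted p = 3.2e-29) and NIT2 (1.62 ± 0.08). The genes lower in SSTS/AAAA were CKX3 (-1.44 ± 0.13, edgeR adjusted p = 3.5e-13), PAP85 (-1.08 ± 0.10), AT4G05470, NAC047 (-0.56 ± 0.10), AT5G39220 (-0.52 ± 0.12), UMAMIT14 (-0.36 ± 0.09), WRKY49 (-0.25 ± 0.11) and AG (-0.21 ± 0.06, edgeR adjusted p = 0.0030). With DESeq2 the AG call was lost (adjusted p = 0.57). Genes of different function thus stood on both sides. Of the floral members AP3, FTM1, SHP2 and AGL17 were higher, AG was lower, and FT (-0.13 ± 0.06, edgeR adjusted p = 0.077) and AGL42 (-0.11 ± 0.13, edgeR adjusted p = 0.48) were not called. Leaving out any single Ctrl or GFP-FIE library put FT past the threshold, lower in SSTS/AAAA, at edgeR adjusted p = 0.0188 to 0.0296. HB40, higher by 0.20 ± 0.09 (edgeR adjusted p = 0.045), lost its call in 15 of the 17 alternative fits. All 3 low-oxygen members and all 3 silencing or repeat members were higher in SSTS/AAAA. The groups of transport, wax and wall genes held 4 higher and 1 lower of 6, and 4 higher of 5. In the whole module 50 of 67 were higher, and no group was tested against it.

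**Figure D3:**
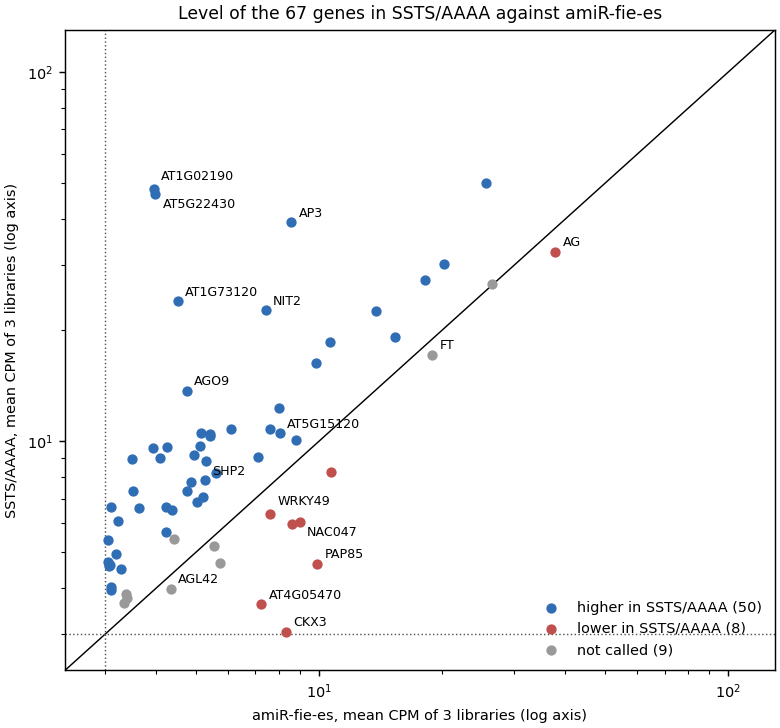
Mean CPM of the 67 genes in SSTS/AAAA against amiR-fie-es on log axes, each point the mean of 3 libraries, with the diagonal of equal level and dotted lines at the limit of 3 CPM. Points above the diagonal outnumber those below: 50 genes were higher in SSTS/AAAA, 8 lower and 9 not called by edgeR.

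No test between the controls is given for these genes, since the rule limits both and many of the genes have few counts there. UMAMIT23 was at 0.102 to 0.271 CPM in Ctrl and 0.448 to 0.962 CPM in GFP-FIE, and AT1G03710 at 0.204 to 0.442 and 0.684 to 1.16 CPM. NAC047 was at 0.624 to 0.712 CPM in Ctrl and 0.163 to 0.365 CPM in GFP-FIE, and PAP85 at 0.544 to 0.984 and 0.293 to 0.414 CPM. The libraries of the controls did not overlap at these genes, which were chosen after their values were seen. How many members showed such a separation was not counted. The choice does not show the balance of directions. Of the 67 members, 46 had a higher mean in GFP-FIE than in Ctrl, and the rest had a lower one. The same count was not made over other silent genes or over all genes, so nothing is read from it.

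Genes of the same pathways outside the module were tested over 11 lists. In all, 37 rose and 28 fell in amiR-fie-es, and 57 rose and 26 fell in SSTS/AAAA. With library totals in place of TMM scaling, 51 rose and 21 fell in amiR-fie-es, and 67 rose and 18 fell in SSTS/AAAA. The genes tested over the 11 lists together were not counted, so these totals are not set against all genes. Of the 35 floral organ and flowering-time genes tested outside the module, 20 rose and 6 fell in amiR-fie-es against Ctrl, and 26 rose and 4 fell in SSTS/AAAA against GFP-FIE. Over all genes tested, 29.3% rose and 30.0% fell in amiR-fie-es, and 33.3% rose and 32.3% fell in SSTS/AAAA. The filter on low counts used all 4 groups. Listed genes too low in both controls to pass it were tested only where a FIE line was higher, which can favour rises in all the lists. Several floral genes failed the rule only on a limit: PI, the partner of AP3, averaged 1.08 CPM in Ctrl, 30.8 in amiR-fie-es and 92.3 in SSTS/AAAA, and SEP3 averaged 2.92, 103 and 126 CPM. AP1 averaged 1.56 CPM in amiR-fie-es and 11.7 in SSTS/AAAA, SEP2 averaged 0.971 and 18.5 CPM, and STK, an ovule factor, averaged 1.85 and 5.70 CPM. Floral repressors on the list went both ways. SVP fell in both lines, with means of 84.8 CPM in Ctrl and 45.4 in amiR-fie-es, and 70.2 in GFP-FIE and 55.0 in SSTS/AAAA. FLC rose in both lines, with means of 1.46 CPM in Ctrl and 7.6 in amiR-fie-es, and 2.22 in GFP-FIE and 11.6 in SSTS/AAAA. MAF5 fell in amiR-fie-es (log2 fold change -1.78) and rose in SSTS/AAAA (0.73).

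Of 17 meristem, boundary and homeobox genes tested outside the module, 3 rose and 3 fell in amiR-fie-es, and 13 rose and 1 fell in SSTS/AAAA. Whether these counts differ between the lines was not tested. Of the 23 hormone synthesis and inactivation genes tested, 6 rose and 11 fell in amiR-fie-es, and 4 rose and 12 fell in SSTS/AAAA. In the cytokinin oxidase family, CKX1 rose in both lines (from 1.10 to 5.30 and from 1.55 to 12.5 CPM), while CKX4 fell in both. Of the 9 PRC2 subunit genes tested, 4 rose and 2 fell in amiR-fie-es, and 5 rose and 3 fell in SSTS/AAAA, with FIE among the falls. Of 5 PRC1 and reader genes, 3 rose in amiR-fie-es and 5 in SSTS/AAAA. Small lists gave few tested genes. Of the seed storage genes outside the module CRA1 and OLEO4 were tested. Both rose in SSTS/AAAA (log2 fold changes 3.24 and 0.56), and neither was called in amiR-fie-es (0.04 and -0.09). Of 3 embryo regulators tested, 1 rose and 2 fell in amiR-fie-es, and 2 rose and 1 fell in SSTS/AAAA. Of 3 anther and pollen genes, 1 rose and 1 fell in amiR-fie-es, and 2 rose and 1 fell in SSTS/AAAA. Of 2 endosperm genes, 1 rose and 0 fell in each line. Of 3 root markers tested, 2 fell in each line, and the 3 shoot markers fell in both.

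H3K27me3 covered most of the genes in the controls. A gene was counted as marked in a library when that library's peaks covered at least 200 bp of it. By this measure 49 of the 67 genes (73.1%) were marked in all 3 Ctrl libraries, against 15.5% of the 31912 genes that could be placed. Among 8654 protein-coding genes silent in all 4 groups the share was 35.9%, and among the 102 genes that came on in SSTS/AAAA but not in amiR-fie-es it was 61.8%. In GFP-FIE 46 of the 67 genes were marked in every library. The genes are longer than other silent coding genes, with a median of 2077 bp against 1315 bp. In 4 classes of length from short to long, the marked share in Ctrl was 52.9%, 81.3%, 76.5% and 82.4% for the 67 genes, and 34.7%, 41.5%, 44.9% and 43.7% for the silent coding genes of the same lengths. These shares are descriptions, with no test.

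The mark varied between the functional groups as sorted here, with the 26 locus-only genes kept apart. All 7 floral members and all 9 other transcription regulators were marked in every library of both controls. Of the low-oxygen members only PCO2 was, and PCO1 and HB1 had no covered base in any control library. Of the wax, wall and metabolism group 3 of 5 were marked in Ctrl and 1 in GFP-FIE. In all, 16 genes were marked in none of the 12 libraries of 2-week-old plants. They included ABCG4, CHR34, PCO1, HB1, RNS1, SAUR51, SCPL43 and SVL3 together with 8 of the locus-only genes, AT5G22430 and AT5G39220 among them. Of these 16, 15 were also unmarked in every library of 7-day-old seedlings. The median level on the RPKM scale was 4.30 in amiR-fie-es and 6.70 in SSTS/AAAA for these 16 genes, and 4.63 and 6.36 for the 46 marked in all 6 control libraries.

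In both lines peaks covered less of the genes, as they did of the genome. Peaks covered 6.05 to 6.68 Mb in the Ctrl libraries and 0.859 to 0.911 Mb in amiR-fie-es, and 5.28 to 5.67 Mb in GFP-FIE and 2.41 to 2.45 Mb in SSTS/AAAA. The depth of the ChIP libraries is unknown, and how much is called can depend on it. Of the 67 genes, 13 were marked in every amiR-fie-es library and 32 in every SSTS/AAAA library, or 4 and 19 with at least 500 bp required. At 200 bp these were 19.4% and 47.8% of the 67 genes, against 3.02% and 7.68% of all genes placed. The mark was lost, from 3 of 3 control libraries to 0 of 3, at 22 of 49 genes in amiR-fie-es (44.9%) and at 5 of 46 genes in SSTS/AAAA (10.9%). Among all genes marked in the same controls 57.2% lost it in amiR-fie-es and 18.1% in SSTS/AAAA. By this definition a lower share of the switched-on genes than of all marked genes lost the mark. With at least 500 bp required the order turned, to 75.6% against 74.1% in amiR-fie-es and 31.0% against 26.7% in SSTS/AAAA.

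Most genes marked in the controls had less covered length in the lines, at shares near those of all marked genes. In amiR-fie-es 47 of the 49 genes had less covered length than in any Ctrl library, against 97.3% of all marked genes, and in SSTS/AAAA 38 of the 46 genes did against GFP-FIE, beside 77.5%. Covered length in the median gene was 8.44% of that in Ctrl for amiR-fie-es and 41.6% of that in GFP-FIE for SSTS/AAAA, and over all marked genes 0% and 46.0%. For a single gene, 3 libraries against 3 cannot give an exact permutation p below 0.1, so no single loss can pass 0.05.

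**Figure D4:**
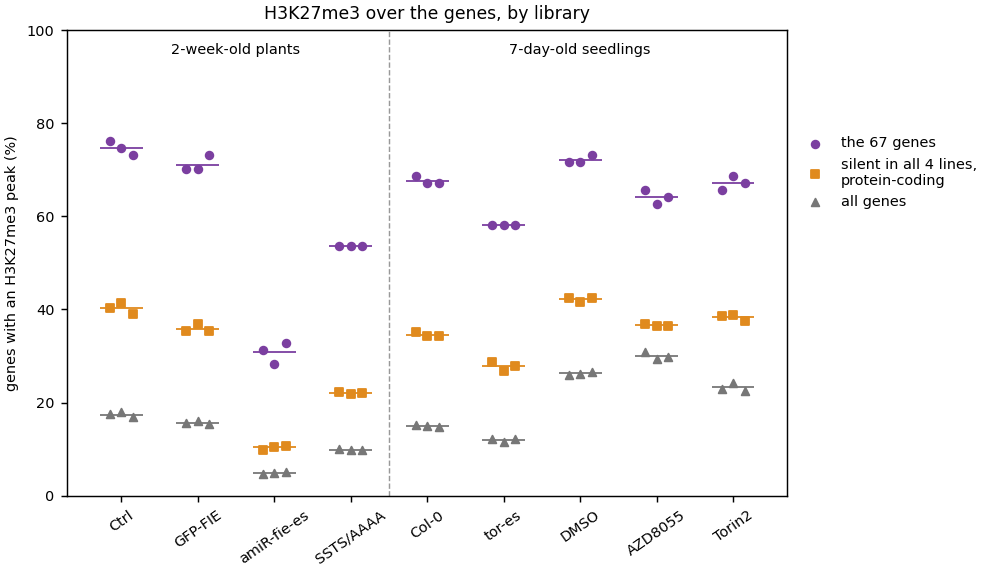
Share of genes with an H3K27me3 peak over at least 200 bp in each of the 27 libraries, for the 67 genes, for coding genes silent in all 4 groups and for all genes, with a bar at the mean of 3 libraries. The 67 genes lie above both other sets in every library, and their share is lowest in amiR-fie-es, at 28.4% to 32.8%.

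Named genes fell into distinct patterns of loss and retention. The mark was lost in both lines at 5 genes, HB21, NAC047, PCO2, TLP5 and AT3G21040. Loss in both lines at once was not counted over all genes. Over HB21 the covered length was 458, 372 and 360 bp in Ctrl and 403, 344 and 418 bp in GFP-FIE, and 0 bp in all 6 libraries of the FIE lines. Over NAC047 it was 1019, 1187 and 491 bp in Ctrl, 682, 865 and 536 bp in GFP-FIE, and 0 bp in both lines.

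At 7 genes the mark was absent from all amiR-fie-es libraries but present in all SSTS/AAAA libraries: AG, AGL17, ALMT1, BRC1, CER4, FT and SADHU5-1. This pattern held at 7 of the 40 members and at 619 of the 29674 genes (2.09%) unmarked in amiR-fie-es. Most of the other genes were unmarked in the controls as well. A closer base is the genes that lost the mark from Ctrl to amiR-fie-es, 22 members and 2830 of all genes. All 7 genes are among these 22 members, but how many of the 619 genes are among the 2830 was not counted. Whether the 7 genes are an excess was therefore not judged. Over AG, covered length was 1780, 1659 and 1240 bp in Ctrl and 2736, 2482 and 1353 bp in GFP-FIE. It was 0 bp in amiR-fie-es and 237, 477 and 521 bp in SSTS/AAAA. Over FT it was 1048 ± 144 bp (SD, n = 3) in Ctrl, 1079 ± 162 bp in GFP-FIE, 0 bp in amiR-fie-es and 253, 508 and 324 bp in SSTS/AAAA. BRC1 kept more: 1158, 1036 and 628 bp in SSTS/AAAA against 1161, 1494 and 1093 bp in GFP-FIE, and 0 bp in amiR-fie-es. The transcripts of AG and FT differed little between the lines (log2 differences -0.21 and -0.13), although peaks remained over them in SSTS/AAAA and not in amiR-fie-es. BRC1 was higher in SSTS/AAAA (log2 difference 1.18 ± 0.11, edgeR adjusted p = 3.0e-12), the line in which it kept its peaks.

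At 13 genes the mark remained in all 6 libraries of both lines, among them AP3, CKX3, SRS7 and AT4G17800. Of the members marked in Ctrl 26.5% kept it in every amiR-fie-es library, against 19.2% of all genes marked there. For SSTS/AAAA against GFP-FIE the shares were 69.6% and 55.2%. Retention in both lines at once was not counted over all genes. Over AP3, covered length was 2100, 1996 and 1980 bp in Ctrl and 1998, 2033 and 2007 bp in GFP-FIE. It was 832, 660 and 626 bp in amiR-fie-es and 1703, 1726 and 1696 bp in SSTS/AAAA. Of the lines, SSTS/AAAA thus had both the longer coverage of AP3 and the higher transcript level. Over CKX3 it was 667, 1147 and 691 bp in Ctrl, 470, 551 and 518 bp in amiR-fie-es, 644, 709 and 869 bp in GFP-FIE and 629, 642 and 636 bp in SSTS/AAAA. Over AT1G02190, the gene with the largest difference between the lines, it was 1137, 1045 and 740 bp in amiR-fie-es and 1968, 1995 and 1651 bp in SSTS/AAAA. Peaks over a gene and its transcript can come from different cells of the same shoots, which these bulk libraries do not resolve. The 13 genes that kept the mark had a median of 3.92 RPKM in amiR-fie-es and 7.57 in SSTS/AAAA, and the 5 that lost it in both lines had 4.53 and 6.07.

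**Figure D5:**
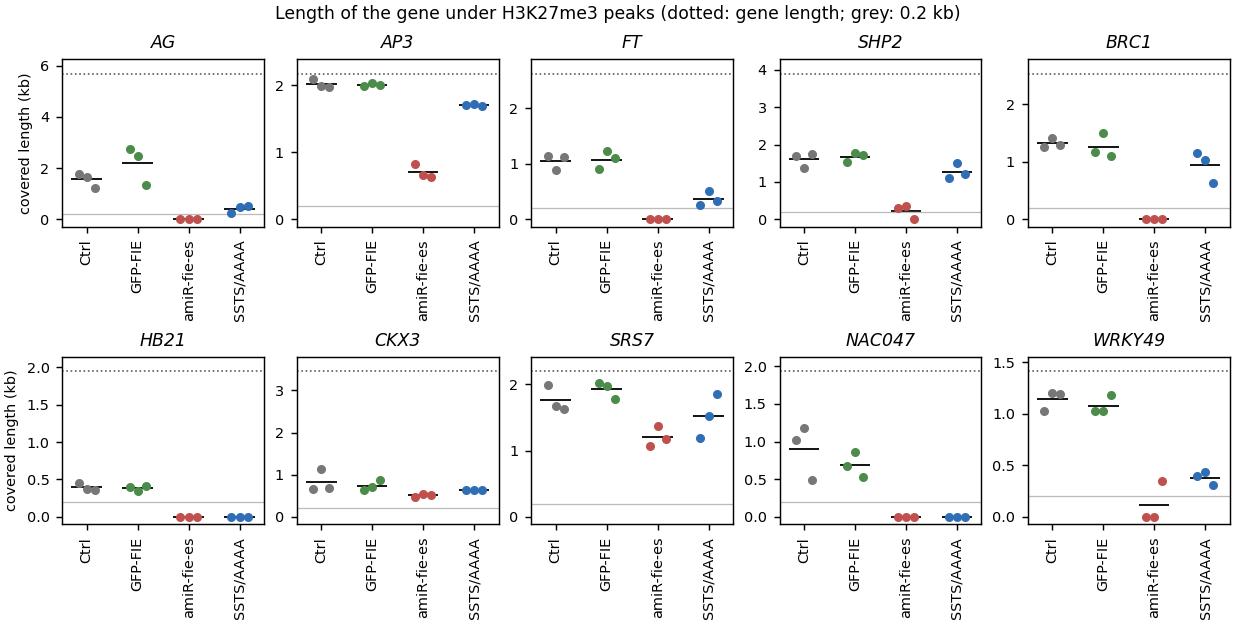
Length of 10 member genes under H3K27me3 peaks in the 12 libraries of 2-week-old plants, in kb, with points for libraries, a black bar at the mean, a dotted line at the gene length and a grey line at the 0.2 kb that counts as marked. AG, FT, BRC1, HB21 and NAC047 have no covered length in amiR-fie-es, while AP3, CKX3 and SRS7 stay above the grey line in all 12 libraries.

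In 7-day-old seedlings the same genes also carried the mark. Few lost it altogether in tor-es or with the TOR inhibitors, but peaks covered less of their summed length there. Marked in all 3 libraries were 44 genes in Col-0, 36 in tor-es, 48 with DMSO, 41 with AZD8055 and 42 with Torin2. In the same order these were 65.7%, 53.7%, 71.6%, 61.2% and 62.7% of the 67 genes. Over all genes the shares were 12.6%, 9.41%, 23.1%, 23.4% and 19.5%. Over coding genes silent in all 4 groups they were 29.4%, 21.8%, 38.6%, 30.6% and 33.8%. The mark was lost in tor-es at 3 of the 44 genes, AGO9, BGLU45 and Rap2.6L, against 7.01% of all genes marked in Col-0. It was lost with AZD8055 at 2 of the 48 genes, BGLU45 and SAUR36 (background 4.75%), and with Torin2 at 2, PP2-A5 and SAUR36 (background 3.45%). With at least 500 bp required, 5 lost it with each inhibitor. Without the first tor-es library the losses were 5, and without the first AZD8055 library 4. All 7 floral members were marked in every one of these 15 libraries. The 5 genes that lost the mark in both FIE lines differed in these seedlings. TLP5 was marked in all 15 libraries. AT3G21040 was marked in all 3 libraries of Col-0, DMSO and Torin2 and in 1 each of tor-es and AZD8055. HB21 was marked in all 3 libraries of DMSO, AZD8055 and Torin2, in 1 of Col-0 and in none of tor-es. NAC047 was marked in 1 DMSO library only, and PCO2 in none. No RNA of the 7-day-old seedlings was analysed here. H3K9me2 peaks covered 200 bp of none of the 67 genes in any of 6 libraries, and 56 of all 31912 genes were marked in the 3 Col-0 libraries.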

How the data were processed

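RNA of 12 libraries and H3K27me3 or H3K9me2 ChIP of 33 libraries were compared, in groups of 3 taken from the labels. Columns named NST were matched to SSTS/AAAA by their labels. The deposited RNA values are raw counts per gene, whole numbers; per the submitters' processing notes, reads passed Trimmomatic 0.36 and HISAT2 2.1.0 and were counted with featureCounts (Subread 1.5.3) on TAIR10. Multi-mapping and strand settings are not stated, so paralogs and overlapping genes are uncertain. The authors' MACS2 peak lists, 1 per library, hold per peak, as deposited, a score, a fold enrichment ratio and −log10 of p and q; reads were aligned with BWA 0.7.15-r1142, per the same notes. The FPKM table was not used.

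CPM is the count scaled to its column total. edgeR 4.0.16 (R 4.3.3) used filterByExpr, TMM, 1 fit of 12 libraries and the quasi-likelihood F test, two-sided, with a threshold of 0.05 on adjusted p. Peaks were joined to genes of a TAIR10.1 table, which matched 31912 of 32678 gene IDs and all 67 members. Ctrl peaks marked 4949 genes in place and 3603 to 4378 when moved by 1 to 20 kb. Intervals and floors (3 counts) cover counting error only. DESeq2 1.42.0 was an alternative. Both steps were tested on simulated data.

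The members and gene lists were chosen with earlier results of these data known. Named genes are the members with the highest levels, those with the largest differences between the lines, those on the 11 lists, those with extreme mark patterns, and those nearest the limits; others were named for their function after their values were seen.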

Additional observations from a re-analysis of the deposited data

How the results depend on the processing

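Of 553 recomputed values, 516 kept their direction and side of the threshold, or stayed within 1.5 times for a count, and no single gene turned its direction. Of the 67 genes, 53 met the rule with TMM-scaled CPM, 37 when every library had to meet the limits, and 11 with limits of 0.5 and 5 CPM. Leaving out 1 library at a time, 63 to 69 genes met it, 63 to 67 of them among the 67. The split between SSTS/AAAA and amiR-fie-es (50 higher, 8 lower by edgeR) stayed at 46 to 50 higher and 6 to 10 lower under every RNA alternative. With the replicate block it was 49 and 8. Libraries of the same number did not deviate together (correlations of -0.0424 to 0.0451), so the numbers do not pair them. Under the block HB40 lost its call. Among the 17 genes recomputed singly, 16 values lost a call (AG with DESeq2 and HB40 in 15 of 17) and 6 gained one, all at FT.

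Requiring 500 bp of peak, the genes marked in every library fell from 13 to 4 in amiR-fie-es, from 32 to 19 in SSTS/AAAA and from 36 to 20 in tor-es. With peaks of −log10 q of at least 5 they were 4, 18 and 19. Losses in SSTS/AAAA went from 5 to 13 with 500 bp. Losses with AZD8055 and with Torin2 went from 2 to 5 with 500 bp. For Torin2 they were 1 with the stricter q and 1 with genes widened by 1 kb on both sides. Leaving out 1 library gave 3 to 5 losses in tor-es and 2 to 4 with AZD8055. The cause of these shifts was not tested. The higher marked share of the 67 genes in Ctrl held under every setting, at 59.7% to 76.1% against 25.5% to 41.7% of silent coding genes. The planned window of 1 kb upstream was not run, because the gene table used here gives no strand; widening on both sides was chosen after seeing the data. The control levels rest on few counts per gene, and ChIP depth is unknown.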
